A study of Mus musculus with 14 samples.

Results

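Of 6155 EBF1 peaks called with wild-type (wt) EBF1 in A-MuLV pro-B cells, 1436 overlapped no peak called with EBF1 dC, the form without the C-terminal domain. Of these wild-type-only sites, 800 also overlapped a Brg1 peak of the wt A-MuLV cells by at least 1 bp, and they are the sites described here. The 2 nearest classes serve for comparison. They are the 636 wild-type-only sites without Brg1 and the 3630 EBF1 wt sites that overlapped a dC peak and carried Brg1, called shared sites below. The absence of an EBF1 dC peak and the presence of Brg1 with wt EBF1 in A-MuLV cells are the values the sites were chosen by, and are therefore not results. The A-MuLV Brg1 dC list and the 5 fetal liver Brg1 lists were not used to choose them.

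Among 14 mouse samples (C57BL/6 background) there are 9 ChIP-seq libraries, each the only library of its group, and 5 inputs. For the fetal liver libraries, c-kit+ progenitors of EBF1 -/- embryos (day 16 to 18) were transduced with a retrovirus that also encodes GFP. The virus was empty, or carried EBF1 wt, dC, dPLD (residues 480 to 520 removed) or F-GATA3, in which the TA1 domain of GATA3 stands in place of the C-terminal domain. All 5 cultures grew for 14 to 20 days on OP9 stromal cells with IL7, SCF and Flt3 ligand before Brg1 ChIP. The A-MuLV lines are pro-B cells transformed with Abelson virus, made from EBF1 fl/fl fetal liver, with either wt or dC in place of their own EBF1, and both Brg1 and EBF1 were profiled in each line. By their labels, the wt, F-GATA3 and A-MuLV cells are pro-B cells, the dC and dPLD cells are partially blocked on the way to that stage, and cells with the empty vector are blocked ahead of it. The form of EBF1 and the stage of the cells therefore cannot be told apart in the fetal liver lists, and no expression data were analysed here to check the stages.

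EBF1 is a transcription factor that specifies the B-cell lineage and binds DNA as a dimer at a palindromic motif. It can bind genes in closed chromatin, and its C-terminal domain is needed for part of that activity. The Smarca4 gene encodes Brg1, the motor subunit of BAF chromatin remodelling complexes, which slide or evict nucleosomes and so expose enhancers and promoters. A-MuLV lines are a standard model of pro-B cells, the stage at which immunoglobulin genes are being rearranged.

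Few of the sites lay at promoters, so sequence can be shown for only some of them. RefSeq promoter windows (GRCm38.p6, 250 bases before to 50 after a gene start) overlapped 17 of the 800 sites, each a different window, and 8 of the 17 windows held the EBF1 summit. The stretches printed below are the parts of the EBF1 peak that lie in the window, read 5′ to 3′ along the gene and cut 30 bases past the gene start. The cut shortens the 1500009C09Rik stretch from 210 to 190 bases and the H2-Eb2 stretch from 192 to 172, and the H2-Eb2 summit lies in the part not printed. Capitals mark matches to CCCNNGGG, the core of the EBF1 motif, where N is any base. The first pair hold both a core match and the EBF1 summit, the third is the strongest EBF1 site of the 17, and the last pair begin genes of antigen presentation and cytokine reception.
Gm35676 (chr8:110444403-110444641, minus strand): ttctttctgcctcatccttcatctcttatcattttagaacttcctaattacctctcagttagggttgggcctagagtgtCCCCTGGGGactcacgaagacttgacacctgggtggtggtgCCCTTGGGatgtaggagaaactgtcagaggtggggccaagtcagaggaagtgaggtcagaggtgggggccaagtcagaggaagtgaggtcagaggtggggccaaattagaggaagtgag
Gm10829 (chr2:35841229-35841466, plus strand): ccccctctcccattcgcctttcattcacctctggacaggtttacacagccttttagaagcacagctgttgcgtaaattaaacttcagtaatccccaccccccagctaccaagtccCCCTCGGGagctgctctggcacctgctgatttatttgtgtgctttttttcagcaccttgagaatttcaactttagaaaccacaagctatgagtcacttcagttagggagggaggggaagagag
1500009C09Rik (chr15:82255962-82256151, plus strand): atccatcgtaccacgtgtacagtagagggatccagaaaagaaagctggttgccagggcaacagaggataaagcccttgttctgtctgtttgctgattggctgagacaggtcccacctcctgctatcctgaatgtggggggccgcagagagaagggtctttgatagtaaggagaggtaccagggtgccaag
H2-Eb2 (chr17:34325533-34325704, plus strand): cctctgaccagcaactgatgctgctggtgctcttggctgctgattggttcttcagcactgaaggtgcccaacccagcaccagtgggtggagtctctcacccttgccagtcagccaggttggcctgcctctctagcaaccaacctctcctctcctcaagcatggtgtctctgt
Il5ra (chr6:106749160-106749287, minus strand): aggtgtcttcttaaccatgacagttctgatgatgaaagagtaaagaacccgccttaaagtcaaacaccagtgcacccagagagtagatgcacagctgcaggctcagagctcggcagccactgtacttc

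The Gm35676 window held 3 matches to the core, of which a pair overlap, and the nearest was centred 9.5 bp from the EBF1 summit. In the Gm10829 window the single match was 43.5 bp from the summit. The windows of the other 3 stretches held 0 matches, counted over the whole window, which says only that these letters are not there. H2-Eb2 encodes a chain of an MHC class II molecule, and Il5ra encodes the receptor chain for interleukin 5, a cytokine that acts on eosinophils and on B cells in mice.

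These promoter sites differed in their Brg1 calls. The Gm35676 site had Brg1 with wt EBF1 in A-MuLV cells (fold 4.81) and in no other library. At Gm10829 the A-MuLV wt fold was 9.91, and in fetal liver cells the fold was 4.15 with the empty vector, 14.8 with wt, 10.9 with dC, 11.2 with dPLD and 9.46 with F-GATA3. The H2-Eb2 site was called with wt (8.53) and F-GATA3 (5.08) in fetal liver cells and with no other form. At Il5ra, wt (10.8), dC (6.41), dPLD (7.0) and F-GATA3 (7.25) were called and the empty vector was not. All values of this kind are the authors' fold enrichment of a peak, and they describe and rank peaks within 1 list only.

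The longer palindrome, CCCNNGGG with T before it and A after it, was found in 0 of the 17 windows (exact upper limit 19.5%), against 0.904% of all 32851 RefSeq promoter windows, each motif being searched on both strands. CCCNNGGG was found in 4 of 17 (23.5%, exact Clopper-Pearson 95% interval 6.81 to 49.9%), against 13.7% of all windows. Among windows that held the summit of the site, CCCNNGGG was in 2 of 8 at the wild-type-only sites with Brg1, in 7 of 7 at those without Brg1 and in 186 of 304 (61.2%) at shared sites. The E-box CAGNTG, the letters read by E proteins, was in 12 of the 17 windows (70.6%, 44.0 to 89.7%), an interval that holds the 51.4% of all windows. It was in 8 of the 8 summit windows (63.1 to 100%), in 4 of the 7 at sites without Brg1 and in 43.1% of the 304. The RUNX letters TGTGGT were in 3 of 17 windows (16.8% of all windows) and the ETS letters GGAAGT in 1 of 17 (23.8%). With 17 windows these shares are loose, and all intervals here and below cover counting error only.

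The EBF1 wt fold of the 800 sites ranged from 4.64 to 45.6, with a median of 8.62, and the A-MuLV Brg1 wt fold from 2.69 to 34.0, with a median of 6.61. Spearman's rho between the 2 folds was 0.298 over the 800 sites, which share both libraries. Median EBF1 fold was 7.05 at wild-type-only sites without Brg1 and 10.7 at shared sites. A −log10 q under 20 was held by 47.1% of the EBF1 peaks of the 800 sites and by 29.0% of those of shared sites. Sequencing depth is unknown for these lists, and where no peak was called, Brg1 or EBF1 may still be present below the threshold.

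The sites nearest the border of the rule show how sharp it is. Here and below, a site said to be near a gene has it as its nearest protein-coding gene, at any distance, unless a window is stated. Just inside it, EBF1 dC peaks lay 84 bp away near Ptpn1, 88 bp in Tcf7, 105 bp near Ifnar1, 135 bp near Myl10 and 172 bp near Slc29a1. Just outside, the shortest overlaps with an EBF1 dC peak were 178 bp in Ppp1r9b, 191 bp in Slc26a11, 207 bp near Arhgap22 and 211 bp in Fggy. The overlap with Brg1 was as short as 10 bp near Bcat1 and near Sap30bp. The wild-type-only sites nearest to a Brg1 peak without touching it lay 38 bp away near Mnd1, 42 bp in the Igk locus and 44 bp in Dpy19l1. Of the 800 sites, 37 had an EBF1 dC peak within 1 kb.

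Brg1 was seldom called at these sites in A-MuLV cells with EBF1 dC. A dC Brg1 peak overlapped 86 of the 800 (10.8%, 8.69 to 13.1%), against 47% of all EBF1 wt sites. At shared sites the share was 71.4%, and the share at the 800 sites less that at shared sites was -60.7 percentage points (Newcombe 95% interval -63.1 to -57.9). Weighting the shared sites to the EBF1 folds of the 800, in 4 bins, left their share at 70.6%. At wild-type-only sites without Brg1 in wt cells it was 1.26%. A Brg1 dC peak lay within 1 kb without overlapping at another 34 of the 800 sites (4.25%). The share rose to 21.7% when the EBF1 dC list, which is the longer of the 2 EBF1 lists (11147 peaks), was held to 6155 peaks. It was 2.0% when Brg1 peaks needed a −log10 q of 20 and 5.48% above the median EBF1 fold. The difference from shared sites was then -55.5, -32.7 and -66.1 points in that order, so it was smaller with the −log10 q of 20.

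The 5 strongest A-MuLV dC calls among the sites lay near Grhpr (13.5), in Fam53b (12.0), near Bcat1 (11.7), in Klhdc1 (11.4) and in Ext1 (10.0). Grhpr encodes a glyoxylate reductase, Bcat1 a transaminase of branched-chain amino acids and Ext1 an enzyme that builds heparan sulphate. The Grhpr site (chr4:44963595-44963912, 17482 bp from the gene) had A-MuLV Brg1 folds of 11.8 (wt) and 13.5 (dC). In fetal liver cells its fold was 8.91 with the empty vector, 21.7 with wt, 20.3 with dC, 19.8 with dPLD and 15.3 with F-GATA3. Brg1 was thus called there in all 7 Brg1 libraries, the empty vector included. Over the 86 sites the median dC fold was 5.25, close to the median of the whole dC list (5.10).

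In fetal liver cells the calls at the 800 sites were ordered by the form of EBF1 that was supplied. The empty-vector list held 49 of the sites (6.13%, 4.57 to 8.02%), against 17% of all EBF1 wt sites. The dC list held 163 (20.4%, 17.6 to 23.3%), against 52.5%, and the dPLD list 241 (30.1%, 27.0 to 33.4%), against 59.2%. The wt list held 372 (46.5%, 43.0 to 50.0%), against 66.9%, and the F-GATA3 list 380 (47.5%, 44.0 to 51.0%), against 62.9%. F-GATA3 and wt thus held nearly equal numbers of the sites, with dPLD, dC and the empty vector below them in that order. The dC list is the longest of the 5 fetal liver lists (30301 peaks), followed by wt (29354), dPLD (27550), F-GATA3 (25072) and the empty vector (17687). With the EBF1 dC list held to 6155 peaks, the dC share was 33.0% and the empty-vector share 10.2%, with wt at 56.1% and F-GATA3 at 55.5%. With summits required to lie within 200 bp, they were 12.5%, 3.07%, 38.9% and 40.3% in that order.

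**Figure D1:**
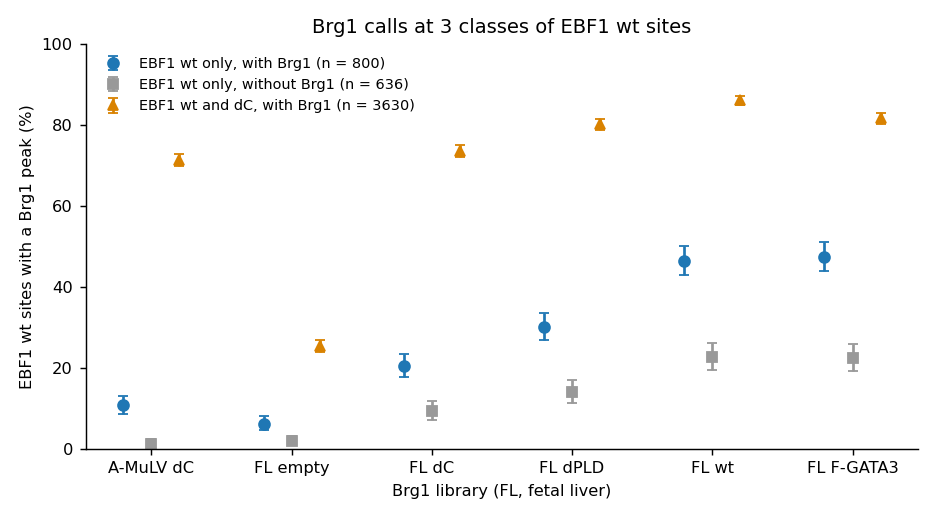
Share of EBF1 wt sites with an overlapping Brg1 peak (y axis, percent) in the A-MuLV dC library and the 5 fetal liver (FL) libraries, for the 800 wild-type-only sites with Brg1 (circles), the 636 without (squares) and the 3630 shared sites (triangles). Bars are exact 95% intervals from counting alone, with 1 library per point. The circles rise from 6.13% with the empty vector to 47.5% with F-GATA3, while the triangles lie at 73.6% or more with every form of EBF1 in fetal liver cells and at 25.4% with the empty vector.

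Every fetal liver share was lower at the 800 sites than at shared sites, and the gap was wider with dC and dPLD than with wt and F-GATA3. The 800 sites less shared sites gave -53.2 points with dC (Newcombe interval -56.2 to -49.9), -50.0 with dPLD (-53.3 to -46.5), -39.6 with wt (-43.2 to -36.0) and -34.1 with F-GATA3 (-37.8 to -30.4). With shared sites weighted to the EBF1 folds of the 800, their shares were 75.6% with dC, 81.2% with dPLD, 85.9% with wt and 80.6% with F-GATA3. Compared with wild-type-only sites without Brg1, the 800 sites were called more often in every fetal liver list. The difference was 23.9 points with wt (19 to 28.5) and 25.0 with F-GATA3 (20.2 to 29.6). It was 16.1 with dPLD (11.9 to 20.2), 11.1 with dC (7.45 to 14.7) and 4.24 with the empty vector (2.23 to 6.28). These 2 classes differ in whether A-MuLV wt cells had Brg1 at the site, and fetal liver cells were not used to tell them apart.

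Read site by site, the difference between forms had a clear direction. Brg1 was called with wt and not dC at 216 of the sites and with dC and not wt at 7, so wt held 96.9% of the discordant sites (93.6 to 98.7%). The same direction was found at shared sites (513 to 57, 90.0%, 87.2 to 92.3%) and at wild-type-only sites without Brg1 (96 to 11, 89.7%, 82.3 to 94.8%). F-GATA3 was called without dC at 237 and dC without F-GATA3 at 20 (92.2%, 88.2 to 95.2%). That split was 454 to 162 at shared sites (73.7%, 70.0 to 77.1%) and 99 to 15 at wild-type-only sites without Brg1 (86.8%, 79.2 to 92.4%). F-GATA3 was called without dPLD at 172 and dPLD without F-GATA3 at 33 (83.9%, 78.1 to 88.7%), against 245 to 191 at shared sites (56.2%, 51.4 to 60.9%) and 76 to 22 at those without Brg1 (77.6%, 68.0 to 85.4%). dPLD in turn was called without dC at 86 sites and dC without dPLD at 8 (91.5%, 83.9 to 96.3%), with 85.6% at shared sites and 84.1% at those without Brg1. The intervals of the 800 sites overlap those of the sites without Brg1 in each of these 4 splits.

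Between F-GATA3 and wt the split was even at these sites. F-GATA3 was called without wt at 77 and wt without F-GATA3 at 69, so F-GATA3 held 52.7% (44.3 to 61.1%). At shared sites F-GATA3 held 25.4% (20.9 to 30.5%), with 85 sites against 249. At wild-type-only sites without Brg1 the split was also even, with 41 sites against 42 (49.4%, 38.2 to 60.6%). When the 5 lists were held to the length of the shortest, the 800 sites gave F-GATA3 71.9% of the discordant sites, so the even split depends on list length.

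**Figure D2:**
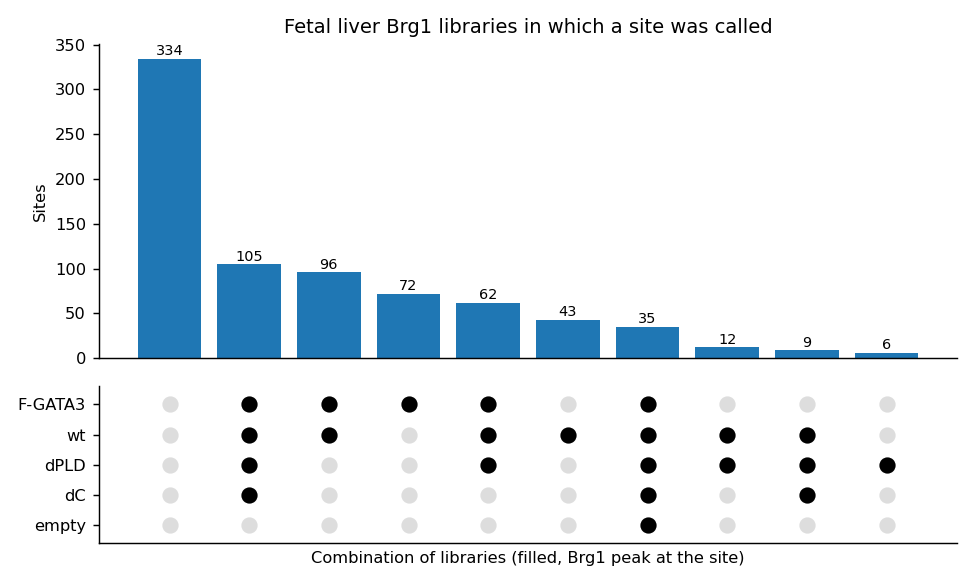
Number of the 800 sites (upper y axis) called in each combination of the 5 fetal liver Brg1 libraries, for combinations with at least 5 sites; filled circles below mark the libraries with a peak. The largest group, 334 sites, was called in none, and 105 were called with all 4 forms of EBF1 and not the empty vector.

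Of the 800 sites, 334 (41.8%) were called in none of the fetal liver lists, against 9.70% of shared sites and 68.4% of wild-type-only sites without Brg1. Another 105 (13.1%) were called with wt, dC, dPLD and F-GATA3, and 35 (4.38%) in all 5 lists, against 24.7% of shared sites for the latter. Sites called with wt and F-GATA3 alone numbered 96 (12%). Shared sites held this pattern in 4.44% and wild-type-only sites without Brg1 in 5.66%. F-GATA3 alone had 72 and wt alone 43. Altogether 211 sites (26.4%) were called with wt or F-GATA3 and with none of dPLD, dC and the empty vector. The share was 8.62% at shared sites and 15.9% at wild-type-only sites without Brg1, so the pattern was not confined to the 800. The opposite pattern, dC or dPLD with neither wt nor F-GATA3, was found at 13 sites (1.63%). Its share was similar at shared sites (1.68%) and at wild-type-only sites without Brg1 (2.20%).

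Where fetal liver wt cells had Brg1, fewer of these sites than of shared sites also had it with dC. Of the 372 wt calls, 156 were also called with dC (41.9%, 36.9 to 47.1%), 228 with dPLD (61.3%, 56.1 to 66.3%) and 303 with F-GATA3 (81.5%, 77.1 to 85.3%). For shared sites the shares were 83.6%, 91.1% and 92.0%, and 78.4%, 86.8% and 88.2% when weighted to the fetal liver wt folds of the 372 sites. Of 144 wt calls at wild-type-only sites without Brg1, 33.3% (25.7 to 41.7%) were also called with dC, 53.5% (45.0 to 61.8%) with dPLD and 70.8% (62.7 to 78.1%) with F-GATA3, so low shares were not confined to the sites with Brg1. The share was higher in the highest bin of wt fold than in the lowest in both classes. In the lowest of 5 bins of wt fold, dC also had a peak at 14.7% of the sites and at 55.2% of shared sites, and in the highest at 70.7% and 95.1%. For F-GATA3 the same shares were 57.3% and 67.4% in the lowest bin and 96% and 99.3% in the highest.

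**Figure D3:**
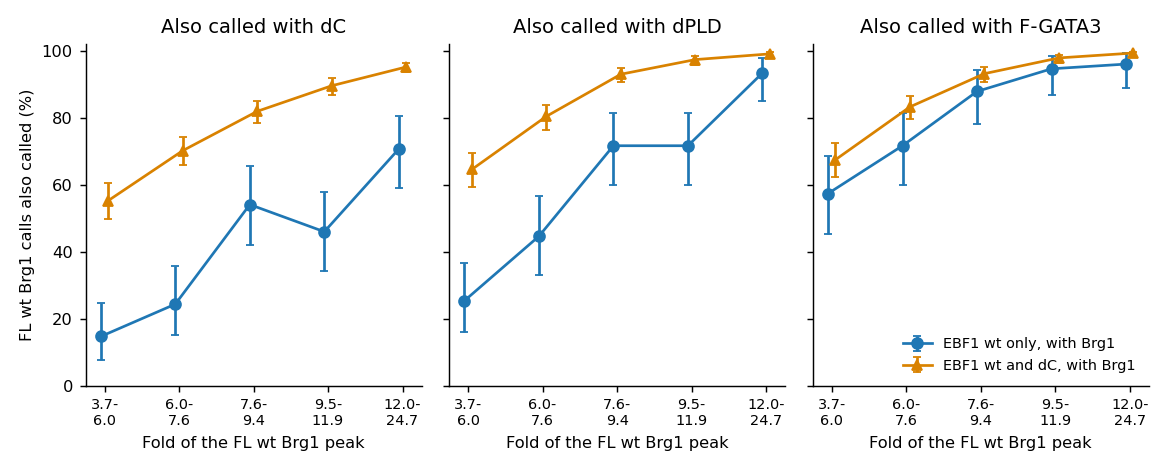
Share of fetal liver (FL) wt Brg1 calls that were also called with dC, dPLD or F-GATA3 (y axis, percent), in 5 bins of the fold of the FL wt peak (x axis), for the 372 of the 800 sites with such a call (circles, 74 or 75 per bin) and for shared sites (triangles, 344 to 1153 per bin). Bars are exact 95% intervals from counting alone. The circles lie below the triangles in every bin with dC and dPLD without overlap of the bars, and with F-GATA3 the bars of the classes overlap in each bin.

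Stronger EBF1 sites among the 800 were called less often with dC and dPLD. With all EBF1 wt sites cut into 4 equal bins by fold, the dC share of the 800 was 27.7% (n = 220), 23.6% (n = 254), 14.6% (n = 205) and 9.92% (n = 121) from the weakest to the strongest. The dPLD share went from 38.6% to 15.7% and the empty-vector share from 10% to 3.31%. With wt it was 50% in the weakest bin and 39.7% in the strongest (30.9 to 49%), and with F-GATA3 46.4% and 47.9%. The A-MuLV dC share was 17.7% in the weakest bin and 4.96% in the strongest. Among the 800, only the F-GATA3 share was as high in the strongest bin as in the weakest, and the intervals of F-GATA3 and of wt overlap between those bins. At shared sites the dC share also fell, from 79.4% to 69.0%, as did dPLD (83.7% to 77.7%) and the empty vector (29.9% to 21.8%). Shares there did not fall with wt (85.0% and 86.6%), F-GATA3 (78.1% and 84.2%) or A-MuLV dC (70.7% and 74.8%). At wild-type-only sites without Brg1, dC went from 10.9% to 0 of 13 sites.

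**Figure D4:**
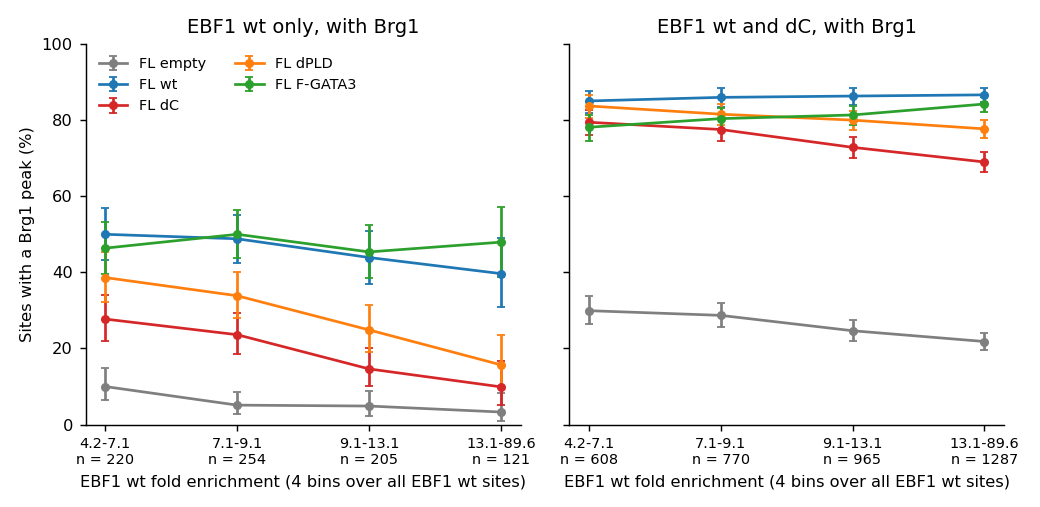
Share of sites with a Brg1 peak in each fetal liver (FL) library (y axis, percent) by bin of EBF1 wt fold (x axis, 4 bins with limits taken over all 6155 EBF1 wt sites), for the 800 wild-type-only sites with Brg1 (left) and the shared sites (right). Bars are exact 95% intervals from counting alone. On the left the dC line falls from 27.7% to 9.92% while the F-GATA3 line stays between 45.4% and 50%. On the right the dC line falls from 79.4% to 69.0%.

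The distance from the EBF1 summit to the summit of the overlapping Brg1 peak also differed between libraries. Each median was taken over the sites called in that library. The sets of sites therefore differ, and distances were not compared at the same sites. In A-MuLV cells the median was 33.5 bp with wt (800 sites) and 82.5 bp with dC (86 sites). The 800 sites were chosen by overlap with A-MuLV wt Brg1 peaks, so these medians cannot be set against each other. In fetal liver cells the median was 41 bp for F-GATA3 (380 sites), 51 bp for wt (372) and 80 bp for dPLD (241). It was 120 bp for dC (163) and 245 bp for the empty vector (49). Brg1 summits within 200 bp of the EBF1 summit made up 82.4% of the F-GATA3 calls (78.2 to 86.1%), 80.4% of the wt calls (76.0 to 84.3%), 65.6% of the dPLD calls (59.2 to 71.5%), 55.8% of the dC calls (47.9 to 63.6%) and 46.9% of the empty-vector calls (32.5 to 61.7%). At shared sites the range was narrower among the EBF1 forms, from 66.6% with dC to 75.1% with F-GATA3. Wild-type-only sites without Brg1 had a spread like that of the 800, from 54.2% (40.8 to 67.3%) for dC and 60.7% for dPLD to 81.9% for wt and 85.3% (78.4 to 90.7%) for F-GATA3. Median widths of the Brg1 peaks at the 800 sites were 1419 bp (dC) and 1133 bp (wt), and the part of peak width in these distances was not tested.

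The 10 sites with the highest EBF1 wt fold were mostly without Brg1 outside A-MuLV wt cells. None of the 10 had an A-MuLV dC peak, against 10.8% of the 800. No fetal liver list held 6 of them, against 41.8% of the 800. The highest was in Panx1, which encodes a membrane channel (chr9:15029679-15030473), with an EBF1 fold of 45.6 and an A-MuLV Brg1 wt fold of 23.3. It was followed by sites in 1190005I06Rik (EBF1 44.4, Brg1 6.49) and in Sds, which encodes serine dehydratase (40.5 and 15.1). None of these 3 was called in any other Brg1 library. A site in Ms4a14, a gene of the family that includes CD20, had 33.4 and 22.7, and was likewise without other calls. So were sites near LOC108167340 (28.5 and 7.73, 116119 bp from the gene) and in C2cd2l (28.4 and 18.1).

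The other 4 of the 10 had calls in fetal liver cells. The site near Dio2, which encodes a thyroid hormone deiodinase, lay 78609 bp from the gene. It had an EBF1 fold of 38.4 and was called with wt (6.37) and F-GATA3 (6.11). In Mapk10, which encodes a JNK kinase, the EBF1 fold was 33.7 and only F-GATA3 was called (6.30). Near Cenpm, which encodes a centromere protein, the EBF1 fold was 31.9, with Brg1 calls for wt (10.7) and F-GATA3 (12.7). This is the site whose promoter stretch is printed above under 1500009C09Rik. The site near Rorb, which encodes a nuclear receptor, lay 150497 bp from the gene. It went the other way, with calls for wt (11.6), dC (10.2) and dPLD (10.8) and none for F-GATA3.

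Ranked by A-MuLV Brg1 wt fold, the leading sites were in Clint1 and near E2f8. The Clint1 site (chr11:45875122-45875579), in a gene for a clathrin-binding protein, had a Brg1 fold of 34.0 and in fetal liver cells 11.7 with wt and 12.2 with F-GATA3. The site near E2f8, which encodes an E2F factor of the cell cycle, had 27.6 and no fetal liver call. An EBF1 dC peak lay 281 bp from it. In Pde2a, which encodes a cyclic nucleotide phosphodiesterase, the A-MuLV fold was 22.3, and an EBF1 dC peak lay 248 bp from the site. Its fetal liver folds were 11.1 with wt, 7.89 with dC, 12.8 with dPLD and 11.0 with F-GATA3. Sites in Ttll5 (21.9) and Heyl (20.1), the latter a gene for a Notch-responsive repressor, were called with wt and F-GATA3, and Ttll5 also with dPLD and the empty vector. Near Cfi, which encodes complement factor I, the fold was 21.5 with no fetal liver call, and near Spin1, which encodes a reader of methylated histone H3, it was 20.0 with a call for F-GATA3 (7.26).

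The strongest F-GATA3 calls without a dC call lay in or near genes of several kinds. In Tmem132e (chr11:82410458-82410803) the fetal liver fold was 20.3 with F-GATA3, 15.9 with wt and 8.01 with dPLD. In Ryr2, which encodes a calcium release channel, F-GATA3 alone was called (18.3). Near Rbbp8, which encodes a DNA end resection factor and lay 98598 bp from the site, F-GATA3 had 17.7 and wt 6.83. Of the 10 leading sites of this kind, 9 were also called with wt, Ryr2 being the exception, and 6 with dPLD. They include sites near Zfp462 (16.4), in Kcnj12 (14.9), near the Polycomb gene Cbx6 (14.9), near Irf2bp2 (14.8), near Adm (14.7), near Tex44 (14.6) and in the Igk locus (14.6).

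**Figure D5:**
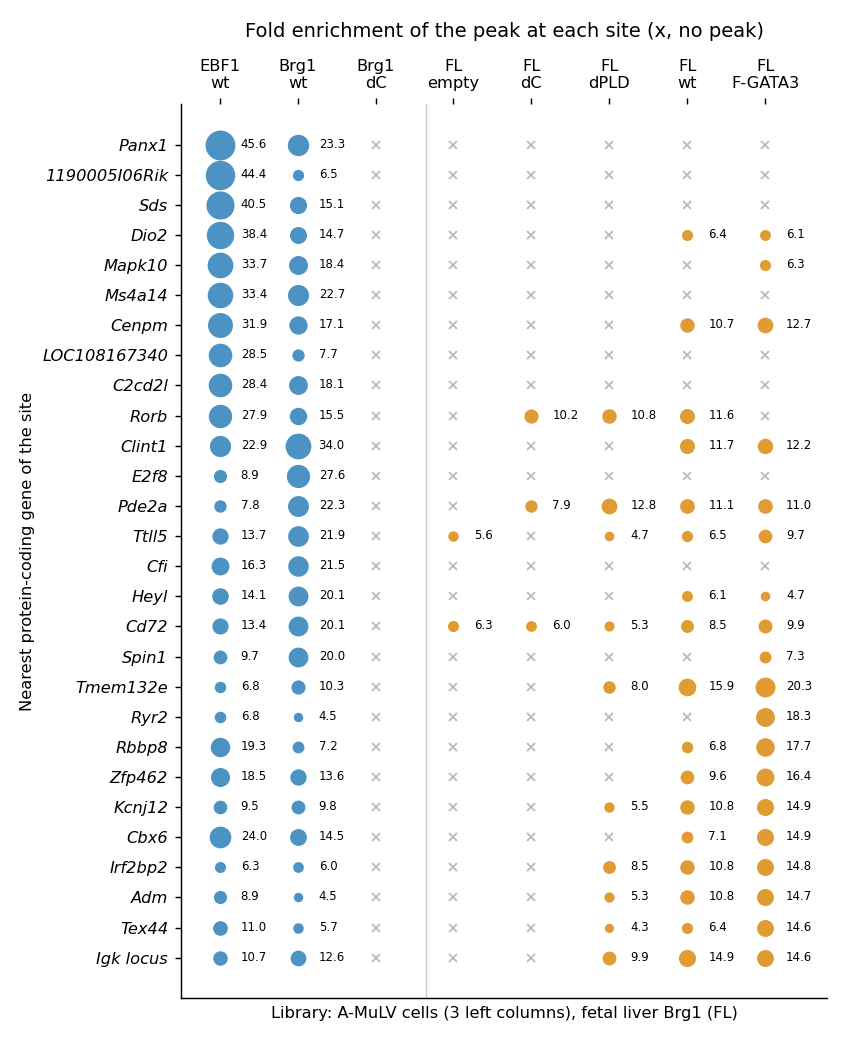
Fold enrichment of the peak at 28 named sites (rows, by nearest protein-coding gene) in the EBF1 wt library and 2 Brg1 libraries of A-MuLV cells and in 5 fetal liver (FL) Brg1 libraries; circle area is proportional to the fold, which is printed beside it, and a cross marks no peak. Folds are to be read down a column, not across. None of the 28 has a Brg1 peak with dC in A-MuLV cells, where 10.8% of all 800 sites have one. The lower 10 rows were chosen for F-GATA3 calls without a fetal liver dC call.

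Calls with wt and not F-GATA3 were led by sites in Fgd3 (15.1), in Cnn1 (12.6), near Ccdc88b (12.0), near Dio3 (11.8) and near Rorb (11.6). The Dio3 site lay 329430 bp from its gene and the Rorb site 150497 bp. Fgd3 encodes an exchange factor for the GTPase Cdc42, and Cnn1 encodes calponin, a protein of smooth muscle. The strongest empty-vector calls lay in Klhdc1 (13.0), in Rapgef3 (11.5), near Plcg2 (10.6), near Lrig2 (9.07) and near Grhpr (8.91). Plcg2 encodes the phospholipase that acts below the B-cell receptor. Its site had a fold of 10.0 with wt, 10.6 with dC, 10.5 with dPLD and 10.6 with F-GATA3, so it was called in all 5 fetal liver lists, and it had no A-MuLV dC call.

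Across the genome the 800 sites lay mostly away from gene starts. Over the 780 sites on chromosomes with promoter entries, 22 had their summit within 1 kb of the start of a protein-coding gene (2.82%, 1.78 to 4.24%), against 19% of shared sites, 3.59% of wild-type-only sites without Brg1 and 13.1% of all EBF1 wt sites. The promoter table covers 17491 of 21883 protein-coding genes, so these shares are lower bounds in every class. Bodies of protein-coding genes held 50.6% of the 800 sites and 61.6% of shared sites. The median distance to a listed start was 34644.5 bp, against 17048.5 bp at shared sites.

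Sites near a start carried Brg1 in dC cells more often than distant ones. Within 1 kb, 9 of 22 had an A-MuLV dC peak (40.9%, 20.7 to 63.6%), against 9.38% (7.18 to 12.0%) of the 608 sites over 10 kb away. In fetal liver cells dC was called at 59.1% of the 22 (36.4 to 79.3%) and at 17.6% (14.7 to 20.9%) of the 608. F-GATA3 was called at 54.5% (32.2 to 75.6%) and 46.7% (42.7 to 50.8%), so its intervals overlap between the distance groups and those of dC do not. The dPLD intervals were also apart, at 59.1% (36.4 to 79.3%) and 26.6% (23.2 to 30.3%). Those of wt overlap (68.2%, 45.1 to 86.1%, and 44.1%, 40.1 to 48.1%), as do those of the empty vector (18.2%, 5.19 to 40.3%, and 5.26%, 3.63 to 7.35%). The comparison classes were not split by distance.

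One locus held a cluster of the sites. Chromosome 6 had 75 of the 800 among its 342 EBF1 wt sites (21.9%), against 13.0% over all chromosomes used. Of these 75, 40 lay in the Igk locus, the immunoglobulin kappa light chain genes (chr6:67555636-70726754). Of the 40, Brg1 was called in fetal liver cells at 3 in the dC list, 18 in dPLD, 32 in F-GATA3, 35 in wt and 0 in the empty-vector list, and at 0 with dC in A-MuLV cells. For 40 sites a count of 0 allows a share of up to 7.5%. The 13 shared sites in Igk had calls at 5 in the dC list, 11 in dPLD, 11 in F-GATA3, 12 in wt and 0 in the empty-vector list. With dC in A-MuLV cells, 4 of these 13 were called. Igk also held 8 wild-type-only sites without Brg1. Fetal liver calls there were at 1 in the dC list, 1 in dPLD, 3 in F-GATA3, 4 in wt and 0 in the empty-vector list. Igh, the heavy chain locus, held 3 of the 800. Outside Igk the shares over the other 760 sites were 44.3% (wt), 45.8% (F-GATA3), 29.3% (dPLD), 21.1% (dC) and 6.45% (empty vector).

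Most of the 800 sites, those in Igk included, had no other of the 800 within 10 kb. Within 10 kb of each other lay 83 of the 800 sites, in 39 runs of at most 3 (10.4% of the sites). The share was 25.5% of the 3630 shared sites and 2.20% of the 636 wild-type-only sites without Brg1, classes that differ in number. A shared site lay within 10 kb of 162 of the 800 (20.3%). Outside Igk the sites were nearest to 640 protein-coding genes, of which 544 had 1 site. Kynu had 5, and Adamtsl1, Zfp462 and Zmiz1 had 4 each.

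Of all protein-coding genes, 583 (2.66%) had at least 1 of the 800 sites in their body or within 10 kb of it. B-lineage genes had a site at 4 of 40, and each of the 4 showed another pattern. Cd79b encodes a signalling chain of the B-cell receptor. Its site (chr11:106303625-106304115, 7226 bp from the gene) had fetal liver folds of 22.3 (wt), 21.6 (F-GATA3), 6.62 (dC) and 6.37 (dPLD), with no empty-vector and no A-MuLV dC call. The A-MuLV Brg1 wt fold there was 6.80.

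Tcf3 encodes E2A, an E protein required for B-cell development. In A-MuLV cells its site was called with dC (6.98) as well as with wt (9.64). In fetal liver cells wt (16.8), F-GATA3 (15.2), dPLD (13.4) and dC (10.8) all had a peak. Ikzf3, the gene of the lymphoid factor Aiolos, had a site with a high EBF1 fold (26.4) and an A-MuLV Brg1 fold of 15.1, and no other Brg1 library had a peak there. The site near Cd72, an inhibitory co-receptor of B cells, had an A-MuLV Brg1 fold of 20.1. In fetal liver cells it had 6.31 with the empty vector, 8.53 with wt, 5.98 with dC, 5.27 with dPLD and 9.93 with F-GATA3.

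Within 50 kb, 10 of the 40 B-lineage genes had a site, against 6.23% of all protein-coding genes. The added genes were Blnk and Dntt, which are neighbours and share a pair of sites, Irf8, Ms4a1, Cd38 and Cplx2. Blnk encodes an adaptor of B-cell receptor signalling and Dntt the terminal transferase of immunoglobulin rearrangement. The stronger of their sites had fetal liver folds of 14.4 with F-GATA3, 11.5 with wt, 7.39 with dPLD and 5.88 with dC, and the other was called with F-GATA3 alone (7.89). Of the Irf8 sites, the one 10152 bp from the gene was called in every Brg1 library, with fetal liver folds of 17.5 (wt), 15.5 (dPLD), 14.8 (dC), 12.5 (F-GATA3) and 4.71 (empty vector). The other Irf8 site and those near Cd38 and Ms4a1, the gene of CD20, were called in no fetal liver list, and the Cplx2 site with wt alone (6.37).

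Counts were small in the lists of other lineages too, and their shares were not all below the 10% of B-lineage genes. Of 16 T-lineage genes 2 had one of the sites within 10 kb (12.5%). They were Tcf7, the gene of the T-cell factor TCF1, called with wt (5.46) and F-GATA3 (6.01), and Il2ra, which encodes a chain of the interleukin 2 receptor, called with wt (6.15). Of 10 erythroid and megakaryocyte genes 2 had a site (20%). Tfrc, the transferrin receptor gene, was called with all 4 forms in fetal liver cells (5.15 to 7.78) and with dC in A-MuLV cells (8.63), and Gp9, a platelet glycoprotein gene, with all 4 forms at folds of 12.4 to 14.1. None of 12 innate lymphoid and NK, 14 myeloid, 12 progenitor and 14 ubiquitously expressed genes had a site within 10 kb.

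BAF and PBAF subunit genes had a site at 2 of 18, and immune signalling genes at 3 of 20. Smarcd1, a BAF subunit gene, had a site with an EBF1 fold of 12.5 that was called in no fetal liver list. The site in Pbrm1, a PBAF subunit gene, was called with the empty vector (7.93) and with no form of EBF1. Pik3cd, the gene of a lymphocyte PI3-kinase, was called with dPLD (12.7), F-GATA3 (6.04) and wt (5.20). Vav2, an exchange factor gene, was called with F-GATA3 (6.00), and Nfkb1, an NF-kappa-B gene, with all 4 forms at folds of 10.2 to 11.3. The counts are small and the lists were chosen with earlier results of these data known, so nothing particular to a list is read from them.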

How the data were processed

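Only the 9 deposited peak lists (GRCm38) were analysed, not the reads or coverage tracks. Tools named in the submitters' processing notes are MACS2 2.1.2, Bowtie2 2.3.3.1, deepTools 3.3.1 and SAMtools 1.9. How peaks were thresholded, which input was used for each list and how duplicates were treated is not given in the sources used here. As a ratio, the authors' fold enrichment sets ChIP signal at the summit against local background. The deposited −log10 p and −log10 q values belong to the summit. As the authors deposited it, the score column equals the −log10 q multiplied by 10 and truncated. Fetal liver and EBF1 lists stop near a −log10 q of 10, whereas the A-MuLV Brg1 lists reach 1.37 (wt) and 1.33 (dC) and so were called more loosely. Per the labels' protocols, EGS was used together with formaldehyde (2% for fetal liver, 1% for A-MuLV) before Brg1 ChIP, and formaldehyde without EGS (1%) before EBF1 ChIP.

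Overlap of at least 1 bp was taken between peaks of autosomes 1 to 19, X and Y, and checked first on simulated intervals. Shares carry exact Clopper-Pearson 95% intervals (scipy 1.17.1) and differences of shares Newcombe intervals. Both cover counting error only. Each site was counted separately, although neighbouring sites can overlap the same Brg1 peak. With 1 library per group there was no test and no spread between replicates. Gene positions and promoter windows came from RefSeq tables for GRCm38.p6, the latter without windows on the chromosome of 20 of the sites.

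Named sites are those with the 10 highest EBF1 wt folds, A-MuLV Brg1 wt folds, and F-GATA3 folds without dC, the 5 highest A-MuLV dC, fetal liver wt without F-GATA3, and empty-vector folds, those at the border of the rule, and the list genes with a site. One site just outside the rule is not reported here. Sites at the Brg1 border, genes with several sites, and Igk and Igh were named after their values had been seen. The sites and the 9 gene lists (156 genes) were chosen with earlier results of these data known. Alternatives covered the overlap rule, list lengths, peak strength, distance from EBF1 dC peaks and gene windows.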

Additional observations from a re-analysis of the deposited data

How the results depend on the processing

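No paired analysis was possible because each group had 1 library, so no replicate block could be fitted and no replicate left out. Over 8 alternatives, 80 of 120 values stayed within the intervals of the main values or, for the number of sites, within 1.5 times the main number, and the order wt and F-GATA3 above dPLD, dPLD above dC, and dC above the empty vector held under each of the 8. All 15 values met this with an overlap of 50% of the shorter peak, with no EBF1 dC peak within 1 kb, and outside Igk, the last added after seeing the data. With summits at most 200 bp apart, fetal liver shares were 40.3% (F-GATA3), 38.9% (wt), 21.0% (dPLD), 12.5% (dC) and 3.07% (empty vector), and the A-MuLV dC share less that of shared sites was -52.2 points. With the EBF1 dC list as long as the wt list, there were 1330 sites, an A-MuLV dC share of 21.7%, and fetal liver shares of 55.5%, 56.1%, 41.7%, 33.0% and 10.2% in the same order. The differences were then -55.5 points (A-MuLV dC, against shared sites), 28.9 (fetal liver wt, against wild-type-only sites without Brg1) and -29.2 (fetal liver wt calls also called with dC, against shared sites). With a −log10 q of at least 20 in the Brg1 lists, 150 sites were left, with an A-MuLV dC share of 2.0%, an empty-vector share of 4.0%, wt 52.0%, dPLD 36.0% and F-GATA3 52.7%. F-GATA3 then held 85.5% of the sites discordant with dC and 77.8% of those discordant with dPLD, and the first pair of differences were -32.7 and 31.9 points. With Brg1 lists of equal length, the shares were 32.4% (wt), 14.3% (dC), 20.5% (dPLD) and 39.4% (F-GATA3), and F-GATA3 held 91.3% of the sites discordant with dPLD and 71.9% of those discordant with wt. Above the median EBF1 fold, 383 sites had shares of 5.48% (A-MuLV dC), 4.18% (empty vector), 13.3% (dC) and 23.2% (dPLD), F-GATA3 held 89.3% of the sites discordant with dPLD, and the differences from shared sites were -66.1 (A-MuLV dC) and -51.5 points (fetal liver wt calls also called with dC).

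Windows of sequence around EBF1 summits were not run, since no genome was used here, and promoter windows took their place. Depth is unknown and A-MuLV Brg1 lists reach lower −log10 q than the others. Of the 800 sites, 18.1% had an A-MuLV Brg1 wt −log10 q under 5, so weak calls take part in the choice of sites. The authors' threshold cannot be lowered from these lists, and a site just below it counts as not called. EBF1 was profiled in A-MuLV cells alone, so its binding at these sites in fetal liver cells was not measured.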

Other observations

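Genes that were nearest to several of the sites, named after their values had been seen, showed different patterns. All 5 sites nearest Kynu, which encodes kynureninase, lay at least 150457 bp from the gene, had EBF1 folds of 5.88 to 15.7, and carried Brg1 in A-MuLV wt cells (5.78 to 9.23) and in no other library. The pair of Kynu sites with a Brg1 fold of 5.78 are neighbours and may share 1 Brg1 peak. The 3 sites near E2f8 carried A-MuLV wt Brg1 at folds of 27.6, 17.5 and 10.3. The site with 17.5 was called in fetal liver cells with wt alone (7.28), as was that with 10.3 (5.62). The strongest, with an EBF1 dC peak 281 bp away, was called in no fetal liver list. Sites near Cxcr4, the gene of a chemokine receptor that keeps B-cell precursors in the bone marrow, numbered 3. They lay 73623 to 118923 bp from the gene. The one with the highest EBF1 fold (18.8) was called with F-GATA3 (10.7) and wt (5.16), another with all 4 forms (6.73 to 11.3), and the last with dPLD alone (5.62). None of these 11 sites had a Brg1 peak with dC in A-MuLV cells, against 10.8% of all 800, so little is read from that count.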
